A study of Homo sapiens with 414 samples.

Results

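Propylthiouracil and 2-imidazolidinethione (ethylene thiourea) are both cyclic thioureas, small molecules in which a sulfur atom is double-bonded to a carbon between nitrogen atoms, and both were labelled toxic in a neurotoxicity screen. All libraries carrying either compound label were taken, 21 of the 414 libraries of the series, of which 11 were propylthiouracil and 10 were 2-imidazolidinethione. The cells were H1-NPC, progenitors of neural cells made from H1, a human embryonic stem line, seeded without the growth factor used for their expansion and treated from the day of seeding. Propylthiouracil was given at 25 µg/ml and 2-imidazolidinethione at 0.4 mM, each at that dose alone, and each was sampled once on days 1, 2, 3, 4, 6, 8, 10, 15, 27 and 39, propylthiouracil also on day 21. From the molar mass, the propylthiouracil dose was 147 µM, so the doses of the thioureas differed by 2.72 times and their values stand side by side below with no test between them. The controls were 147 libraries of 16 compounds with the non-toxic label, including 0.1% DMSO, from the same days, 136 of them on the 10 days of 2-imidazolidinethione. Every group shared the cell line and the medium. Each library of a compound came from a different day, so p-values measure the spread between libraries, most of which were controls. The fits against these controls treated the libraries of 1 compound as nearly independent. Whether wells came from separate cultures is not stated. All toxic libraries carried titles with Hi and all non-toxic ones titles with C. Differences from the controls thus cannot be told apart from a difference between these title series, whose meaning is not stated.

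Thioureas are known to block the making of thyroid hormone. Propylthiouracil is a thiouracil ring carrying a propyl chain and is used as a drug against an overactive thyroid. 2-Imidazolidinethione is a smaller saturated ring known as a breakdown product of fungicides. Cells hold their cholesterol in balance through opposing programmes. SREBP-2 switches on the genes of sterol synthesis and uptake when membrane sterol is low, and the liver X receptors (LXR) switch on sterol export, with the transporters ABCA1 and ABCG1, when oxysterols are abundant. TMEM97 is a sterol-responsive membrane protein also known as the sigma-2 receptor.

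Expression was given in TPM, which scales each transcript to its share of all transcripts of the library. The depth behind each value is unknown. Differences are on the log2(TPM + 1) scale, which understates the change of low genes, and are printed ± SE. A gene rose or fell where limma's Benjamini-Hochberg adjusted p over 16318 tested genes was under 0.05. One non-toxic library, ibuprofen on day 8, was left out because 6101 of 10328 genes lay more than 1 log2 unit from its same-day controls, against 1 to 42 genes in the other 147 non-toxic libraries. The thiourea libraries lay between 2 and 63 such genes. Neural progenitor genes were well expressed in the controls of the 10 shared days, with mean TPM of 1004 for NES and 228 for SOX2, while the pluripotency factor POU5F1 was at 1.18.

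Under 2-imidazolidinethione the genes of sterol synthesis and uptake were higher and the sterol exporters were lower than in the controls. Of 27 genes on the sterol list, 19 rose and 0 fell, beside 1.18% of all tested genes that rose and 8.9% that fell. The median difference of the list was 0.12, against -0.03 over all tested genes. Under propylthiouracil 0 of the 27 passed the test, where 0.588% of all tested genes rose and 3.16% fell, with a list median of 0.01 against -0.02. At an unadjusted p under 0.05, the whole propylthiouracil fit held 2783 genes and 611 passed the adjusted threshold.

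ABCG1, which loads cholesterol onto lipoproteins, ranged in the 10 libraries of 2-imidazolidinethione from 6.44 TPM through a median of 8.67 to 16.8 TPM. The day means of the controls ran from 7.59 to 21.2 TPM. It was below the control mean on 10 of 10 days and below every control library of the day on 8 of them. The difference was -0.47 ± 0.067 with an adjusted p of 3.23e-07 (limma). In the 11 propylthiouracil libraries ABCG1 lay between 8.39 and 21.6 TPM, above the control mean on 9 days and below it on 2, and the difference of 0.12 ± 0.062 missed the threshold (limma adjusted p 0.297). On day 39, for example, it stood at 6.83 TPM under 2-imidazolidinethione and at 10.1 TPM under propylthiouracil, beside a control mean of 13.9 TPM.

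TMEM97 ran the other way under 2-imidazolidinethione, from 49.4 through a median of 112 to 152 TPM, where the control day means ran from 33.0 through 89.5 to 141 TPM. It was above the control mean on 10 of 10 days and above every control of the day on 9. The difference was 0.29 ± 0.037 (limma adjusted p 9.67e-09). In the propylthiouracil libraries, at 39.1 to 145 TPM, it was above all controls on 2 of 11 days, and the difference of 0.08 ± 0.034 missed the threshold (limma adjusted p 0.181). Pooling the compounds averages unlike values for ABCG1, -0.16 together, and the pooled call is lost when any of 6 single libraries is left out (values between -0.15 and -0.13 there) and with libraries centred (-0.13, limma adjusted p 0.072).

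**Figure D1:**
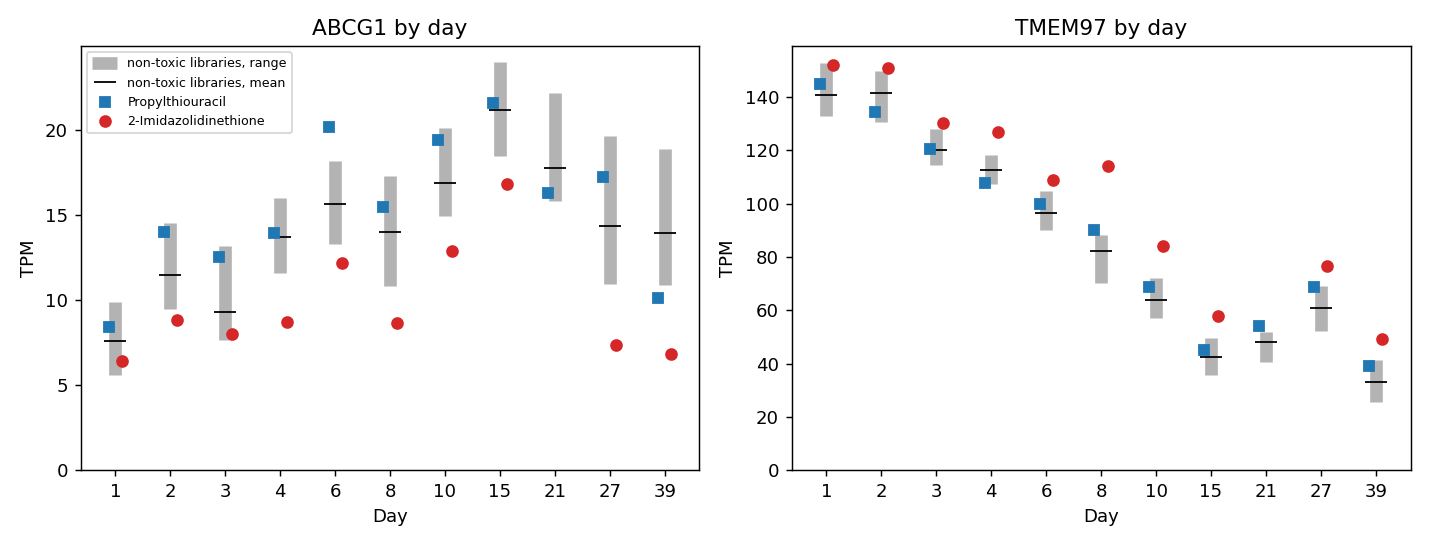
ABCG1 and TMEM97 in TPM by day in single thiourea libraries (squares and circles), with the range (grey bar) and mean (line) of the non-toxic libraries of that day. The 2-imidazolidinethione points lie under the ABCG1 bars on 8 of 10 days and above the TMEM97 bars on 9.

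The genes that rose under 2-imidazolidinethione spanned early and late steps of the pathway. At its start, ACAT2, which joins acetyl-CoA units, differed by 0.21 ± 0.028, and HMGCS1, which makes HMG-CoA, by 0.20 ± 0.034. Among the isoprenoid steps, MVK, MVD, IDI1 and FDPS rose by between 0.10 and 0.18. FDFT1, squalene synthase and the first enzyme committed to sterols, was above every control library of the day on 10 of 10 days, at 292 to 572 TPM, with a difference of 0.20 ± 0.025 (limma adjusted p 4.75e-09). Of the later enzymes SQLE, CYP51A1, MSMO1, NSDHL, EBP and DHCR7 rose, by 0.09 to 0.17. INSIG1, which holds SREBP in the endoplasmic reticulum, rose by 0.17 ± 0.037. The 8 members that did not pass were HSD17B7, LSS, NPC1, PMVK, SC5DL, SREBF2, STARD4 and TM7SF2, with differences between -0.03 and 0.06. SREBF2 itself, the gene of SREBP-2, stood at -0.03 ± 0.024.

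Of 12 tested genes of the LXR and efflux list, 3 fell under 2-imidazolidinethione and 0 rose, beside 8.9% and 1.18% of all tested genes, and the same 3 fell with libraries centred. ABCA1, the partner exporter of ABCG1, lay at 2.73 through 5.52 to 9.39 TPM, below the control mean on 10 of 10 days, with a difference of -0.45 ± 0.089 (limma adjusted p 2.11e-04). With the length trend of each library as a covariate it was -0.29 (limma adjusted p 0.0158). SREBF1, an LXR target that drives fatty acid synthesis, fell by 0.19 ± 0.041 on the log2 scale. The other 9, among them APOE at -0.01 and MYLIP at -0.14, missed the threshold. Under propylthiouracil 0 of the 12 passed, with ABCA1 at -0.14 ± 0.083. In the fatty acid synthesis list 0 of 15 genes passed under either compound. In the pooled fit 2 of the 15 fell and 0 rose, beside 11.8% and 2.06% of all tested genes. With libraries centred, 4 of the 15 were higher under 2-imidazolidinethione, beside 661 of all 16318 tested genes. They were the desaturases FADS1 and FADS2, the elongase ELOVL5 and ACLY, at 0.06 to 0.11. Centring alone moved the median over all tested genes from -0.03 to 0.01. Under propylthiouracil 0 of the 15 were higher with libraries centred, beside 177 of 16318.

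**Figure D2:**
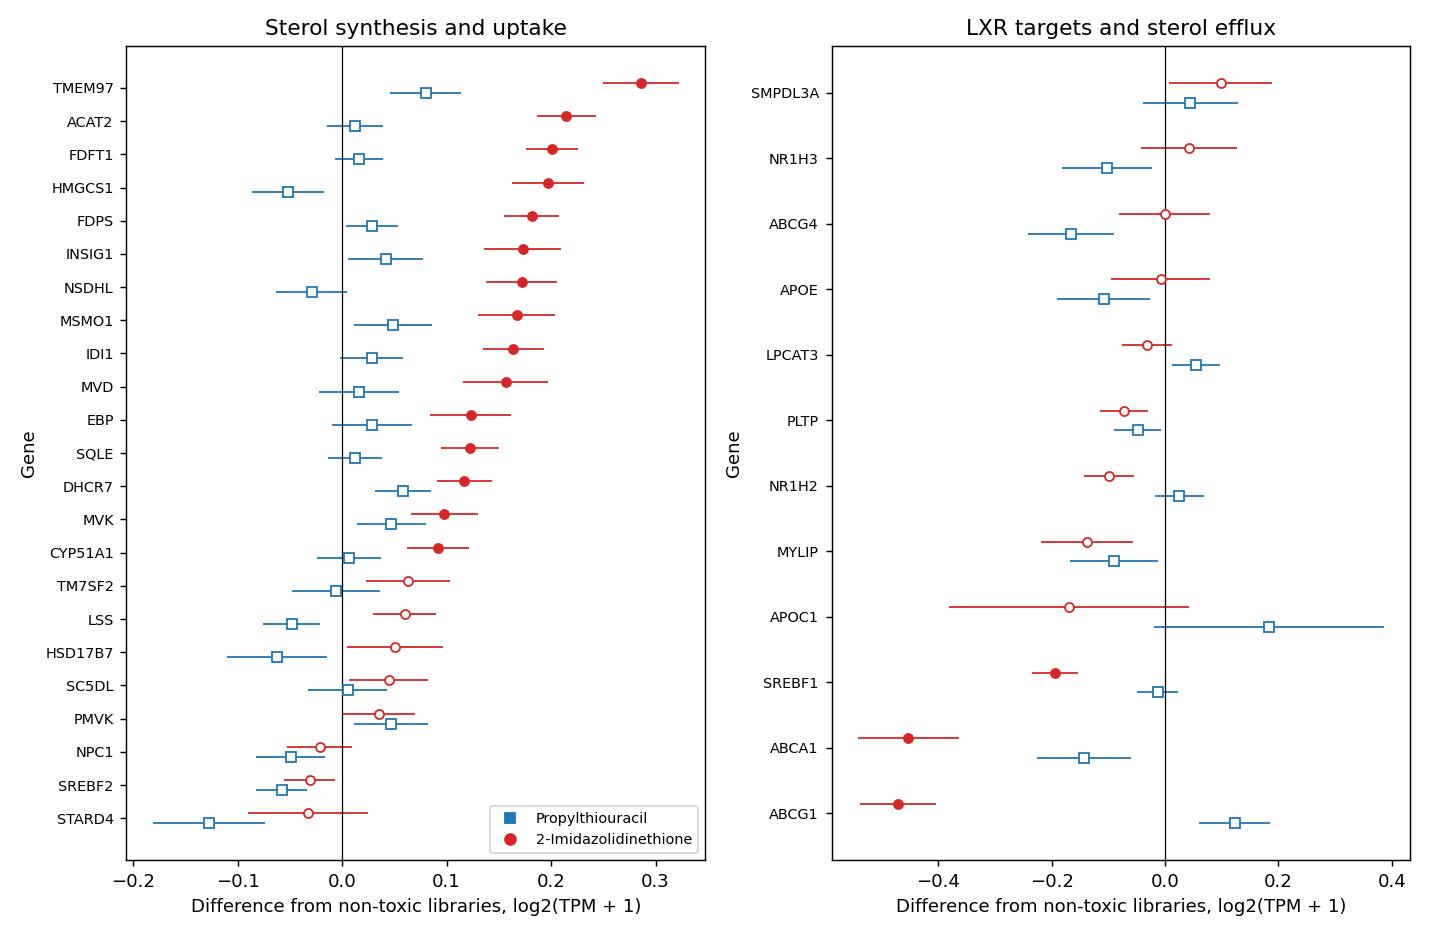
Differences from the non-toxic libraries on the log2(TPM + 1) scale (points, bars ± SE) for 23 genes of the sterol list and 12 of the LXR list, filled where the adjusted p was under 0.05. Under 2-imidazolidinethione (circles) 15 of the 23 sterol genes and 3 of 12 LXR genes are filled, under propylthiouracil (squares) 0 of both.

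By library, the median deviation of the 27 sterol genes from the same-day control mean was above 0 in all 10 libraries of 2-imidazolidinethione, from 0.05 on day 4 to 0.29 on day 39. In the propylthiouracil libraries it ran from -0.10 on day 4 to 0.11 on day 10, with 6 of 11 below 0. The genes above every control library of the day numbered 9 to 17 of 27 in each 2-imidazolidinethione library and 1 to 12 in each propylthiouracil library. These counts depend on the number of controls, from 7 on day 15 to 16 on day 1. The share of all tested genes above every control was not counted, so they have no background here.

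**Figure D3:**
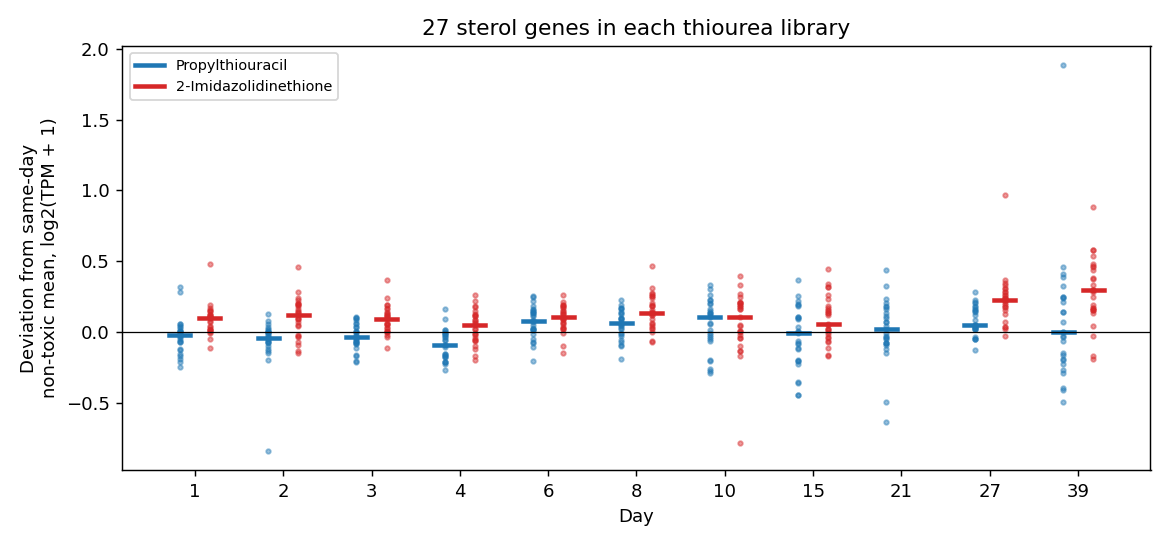
Deviation of each of 27 sterol genes from the non-toxic mean of its day (points) and their median (bars) in every thiourea library, on the log2(TPM + 1) scale. The 2-imidazolidinethione medians lie between 0.05 and 0.29, the propylthiouracil medians on both sides of 0.

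Promoter stretches of 3 of the genes that rose are shown because these genes moved together and carry a shared short pattern. Sequences are RefSeq promoters of build GRCh38.p14, bases -210 to -31 from the gene start on the gene's strand, with CCAAT, or ATTGG on the other strand, in capitals. TMEM97 is on chromosome 17 at 28318990 to 28319169 (plus strand), NSDHL, a sterol dehydrogenase, on chromosome X at 152830853 to 152831032 (plus strand), and MVK, mevalonate kinase, on chromosome 12 at 109573584 to 109573763 (plus strand).
TMEM97: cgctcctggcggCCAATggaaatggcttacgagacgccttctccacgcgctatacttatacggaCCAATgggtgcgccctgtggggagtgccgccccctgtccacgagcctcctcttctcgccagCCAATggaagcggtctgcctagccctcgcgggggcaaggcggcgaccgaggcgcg
NSDHL: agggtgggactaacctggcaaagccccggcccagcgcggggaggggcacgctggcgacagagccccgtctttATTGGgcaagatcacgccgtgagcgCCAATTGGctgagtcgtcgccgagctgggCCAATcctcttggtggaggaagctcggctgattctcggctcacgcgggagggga
MVK: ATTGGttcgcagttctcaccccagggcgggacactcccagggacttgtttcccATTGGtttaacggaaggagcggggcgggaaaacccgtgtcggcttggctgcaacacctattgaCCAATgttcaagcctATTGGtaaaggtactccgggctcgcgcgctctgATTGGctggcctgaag
In all, 11 patterns were searched on both strands from 250 bases before to 50 after the start, all chosen after the expression values were seen, and 12 of the 19 genes that rose had an entry. CCAAT was found in 11 of those 12 genes, in 42.7% of the tested genes with an entry and in 34.6% of all promoters. Counted by promoter entry, since some genes have several, it was in 75% for the 19 genes and 34.2% for the tested genes. It was also in 5 of the 7 sterol genes with an entry that did not pass. GGGCGG was likewise in 11 of the 12 genes and in all 7 of the others, against 72.3% of the tested genes and 45% of all promoters. The sterol element forms TCACNCCAC (1.13% of all promoters), TCACCCCAC (0.43%) and the latter with an A before it (0.0456%) were in 0 of the 12, and each was in the SREBF2 promoter. CCACCCAC (3.64%) and TCACNCNAC (2.55%), which takes in TCACNCCAC, were each in 1 of the 12. A repeat of AGGTCA with 4 bases between, the spacing of LXR elements (0.0199%), TGACC and TAACC with 5 bases between (0.0513%), TCGTGCNAC (0.185%), and CCAAT with 18 bases before TCACNCCAC (0.00285%) were in 0 of the 12. These matches describe letters in this window alone.

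In the whole fit for 2-imidazolidinethione 1645 genes, 10.1% of those tested, passed, 192 higher and 1453 lower. The split changed with scaling. With each library centred on its median, 1199 genes passed and 55.1% of them were higher, against 11.7% as reported, while 20 sterol genes rose. Among the other named rises, CDR1, the locus of a circular RNA, differed by 0.62 ± 0.162, the growth-arrest gene GADD45B by 0.47 ± 0.122 and LGALS1, galectin-1, by 0.32 ± 0.096. FXYD5, SYNC, RARRES3 and CTSO rose by 0.27 to 0.47. Leaving out 1 library ended the call of FXYD5 for 6 of the 10 libraries, of RARRES3 for 5, and of SYNC and LGALS1 for 3 each. Falls included YJEFN3 at -0.52 ± 0.110, the anchoring collagen COL7A1 at -0.46 ± 0.096, below the control mean on 10 of 10 days, and SAP25, FRRS1L, HSF4 and DNASE1L2 at -0.50 to -0.43. HSF4 missed the threshold with libraries centred (limma adjusted p 0.057), with a pseudocount of 0.1 TPM (0.276) and without the library of day 8, 10 or 15 (0.0677, 0.219 and 0.115). Without the day 10 library FRRS1L was at -0.27 and DNASE1L2 at -0.37 (limma adjusted p 0.179 and 0.068), and without day 15 SAP25 was at -0.39 (0.0604). With the length covariate FXYD5, RARRES3, LGALS1, GADD45B, FRRS1L and HSF4 missed the threshold, RARRES3 at 0.22 and FRRS1L at -0.25. CDR1 reached 138 TPM on its highest day from a median of 12.5 TPM, and without the day 15 library its difference was 0.38 with an adjusted p of 0.0938. In fits with 1 shared block correlation CDR1 was positive in 26 of 26 other toxic compounds and IGSF9B negative in 24 of 26, so neither direction is shown to belong to the thioureas.

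In the list of chaperones and stress-response genes of the endoplasmic reticulum 4 of 12 rose under 2-imidazolidinethione and 0 fell, beside 1.18% and 8.9% of all tested genes. They were MANF at 0.17 ± 0.039, the transcription factor gene XBP1 at 0.14 ± 0.038, HSP90B1 at 0.10 ± 0.024 and PDIA4 at 0.10 ± 0.026. Of 14 G2 and mitosis genes 2 rose, UBE2C at 0.25 ± 0.066 and TPX2 at 0.14 ± 0.046, and all 14 had positive differences. Of 14 pan-neuronal genes 3 fell, DCX, ELAVL3 and NCAM1, and GAP43 rose. Of 12 synaptic genes SYN1 and SYT1 fell, 2 of 7 GABAergic genes fell, GAD1 among them, and of 7 glutamatergic genes GRIA2 and GRIN1 fell. These shares stand beside 8.9% of all tested genes that fell. With libraries centred, NCAM1, GAD1, GRIA2 and GAP43 kept their calls and the others of these missed the threshold with the same sign. Among 12 neural progenitor genes 1 fell and 0 rose, the notch receptor NOTCH1 falling by 0.21 ± 0.037 on the log2 scale. Among 8 neural crest genes 2 fell and 0 rose, with the factor TFAP2A falling by 0.22 ± 0.041. The list medians were -0.03 and -0.05, beside -0.03 over all tested genes, of which 8.9% fell. A fall of either list as a whole is thus not shown. Of 11 mesenchymal and matrix genes 0 passed, at a median of 0.15. A fall of cell-type genes in bulk RNA cannot tell fewer cells from less RNA per cell.

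Under propylthiouracil 611 genes passed, 3.74% of those tested, 96 higher and 515 lower, and 603 with libraries centred, 29.4% of them higher against 15.7% as reported. The largest fall among called genes that averaged 5 TPM or more and kept their sign on 80% of days was in KRT17. This keratin gene ranged from 0 through 1.94 to 17.3 TPM where control day means ran from 0.22 through 4.31 to 50.0 TPM, and was below the control mean on 9 of 11 days, with a difference of -0.69 ± 0.167 (limma adjusted p 0.0059). COL8A1, a collagen, differed by -0.58 ± 0.137. DKK2, a Wnt antagonist, the ATP-gated channel gene P2RX3, IGSF9B, and CP, ceruloplasmin, fell by between 0.39 and 0.45 on the log2 scale. The CP call was lost for 5 of the 11 libraries left out singly, and those of DKK2 (-0.34) and P2RX3 (-0.29) without the day 15 library. DPPA4, a pluripotency-associated chromatin gene, was below the control mean on 11 of 11 days, at -0.36 ± 0.061 (limma adjusted p 5.18e-05). Beside these, the 2-imidazolidinethione differences were 0.18 ± 0.164 for KRT17, 0.01 ± 0.132 for COL8A1 and -0.04 ± 0.053 for DPPA4, all short of the threshold.

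DLK1, a non-canonical notch ligand, ran under propylthiouracil from 59.2 through 107 to 211 TPM, above the control mean on 9 of 11 days, with a difference of 0.34 ± 0.070 (limma adjusted p 8.65e-04). HEYL, a notch target, rose by 0.31 ± 0.087 and FAM46A by 0.21 ± 0.047, with PDGFD, MTCP1NB, LIN9, MIF4GD and TPBG between 0.21 and 0.28. Without the day 39 library HEYL was at 0.21, PDGFD at 0.18 and TPBG at 0.14, with limma adjusted p of 0.187, 0.244 and 0.166. Leaving out 1 library ended the call of MIF4GD for 5 of the 11 libraries, of PDGFD for 4, of HEYL and MTCP1NB for 3 each, and of LIN9 and TPBG for 2 each, while DLK1 and FAM46A kept theirs in all 11. In the lists, read beside 3.16% of all tested genes that fell and 0.588% that rose, 4 of 18 p53 targets fell (BBC3, BTG2, CDKN1A and TNFRSF10B, at -0.23 to -0.17), 2 of 7 GABAergic genes, with GAD1 at -0.19 ± 0.059, and NOTCH1 and VIM among 12 neural progenitor genes. HOXB6, at 0.25 ± 0.053, and HOXB8, at 0.17 ± 0.037, rose among 17 HOX genes. With libraries centred, BBC3, CDKN1A and GAD1 missed the threshold, at limma adjusted p of 0.0777, 0.0536 and 0.0534.

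Genes of the thyroid axis were looked at because thioureas are known to block the making of its hormone. TG, thyroglobulin, lay at 0.15 to 0.91 TPM in all thiourea libraries, and 0 of 7 tested hormone synthesis genes passed under either compound. Of 16 transport, metabolism and receptor genes 1 fell under propylthiouracil and 3 under 2-imidazolidinethione, NCOR1 (-0.13 ± 0.034) and RXRB (-0.09 ± 0.029) among the latter, beside 3.16% and 8.9% of all tested genes that fell. The receptors THRA, at -0.10 with propylthiouracil and -0.06 with 2-imidazolidinethione, and THRB, at 0.06 and -0.04, missed the threshold. RELN, at -0.18 ± 0.054 under 2-imidazolidinethione, was the single call among 8 brain targets, a share near that of all tested genes, and 0 passed under propylthiouracil. NCOR1 kept its call with libraries centred, and RXRB and RELN did not.

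Both compounds together differed from the controls in 2254 genes, 13.8% of those tested, 336 higher (2.06%) and 1918 lower (11.8%). With libraries centred 1956 passed, 959 higher and 997 lower, so 49% were higher against 14.9% as reported. Among called genes that averaged 5 TPM or more and kept their sign on 80% of days, VASN, PSMG1 and TMEM97 had the largest rises, of 0.18 to 0.21, and IGSF9B (-0.41 ± 0.072), P2RX3 and GLYCTK the largest falls. VASN missed the threshold without either of 2 single libraries and with the length covariate, and IGSF9B stood at -0.23 with that covariate and kept its call. Between days 1 to 6 and days 8 to 39 the pooled difference itself changed in 1524 genes (9.34%), and in 302 without days 15 and 21. Of the 1524, 31.3% were more positive late, against 59.5% of 1726 with libraries centred. Those more positive late included TWIST2, a mesenchymal factor, at 0.92 ± 0.191, FEZF2 and NEUROG1, and those more negative HSF4 at -0.75 ± 0.169, IGFBP7 and CXCL12. The control mean of TWIST2 was 3.40 TPM. Genes named for the change over time were not followed singly in the alternatives, so their dependence on days 15 and 21 is not known. Under 2-imidazolidinethione alone the difference changed between these windows in 202 genes (1.24%). Sterol genes that rose numbered 11 of 27 on days 1 to 6, beside 0.925% of all tested genes, and 12 of 27 on days 8 to 39, beside 0.429%. Under propylthiouracil they were 0 of 27 early and 1 late, beside 0.692% and 0.729%. TMEM97 went from 0.13 ± 0.026 on days 1 to 6 to 0.44 ± 0.062 on days 8 to 39, a change of 0.31 ± 0.060 (limma adjusted p 0.0022). The change in ABCG1, from -0.33 to -0.62, missed the threshold (limma adjusted p 0.192). Under propylthiouracil alone 676 genes (4.14%) changed, TWIST2 and IGFBP7 among them.

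Against 207 libraries of 19 other toxic compounds, limma called 0 genes for the pair, for propylthiouracil and for 2-imidazolidinethione, with 41, 9 and 8 at an unadjusted p under 0.05. The block correlation for the pair was 0.155 there, against 0.0214 with the non-toxic controls. Without the block, 769 genes were at an unadjusted p under 0.05 and 0 were called. With so wide a spread between compounds, 0 calls do not show that the thioureas equal the others. ABCG1 under 2-imidazolidinethione stood at -0.51 ± 0.243 there and TMEM97 at 0.13 ± 0.199, both at an adjusted p of 1. In fits of every compound against the shared non-toxic controls, the sterol list had a higher median than under 2-imidazolidinethione in 3 of 26 other toxic compounds and 0 of 16 non-toxic ones, and ABCG1 was lower in 3 and 0. Those fits used 1 block correlation and only the days each compound had, so the compounds are not ranked over equal days. Arsenic (-0.72) and cadmium (-0.75), both lower in ABCG1, had 5 libraries each, all from days 1 to 6. On those days ABCG1 under 2-imidazolidinethione was at -0.33. In the fits of every compound the non-toxic compounds had 0 to 56 calls and the 26 other toxic compounds 312 to 13638.

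Dexamethasone, a glucocorticoid given at 100 µM whose label number 29 follows 28 of 2-imidazolidinethione, was looked at after these values were seen. It had a sterol list median of 1.18 with 27 of 27 genes higher, ABCG1 at -1.85, ABCA1 at -1.39 and TMEM97 at 1.92. Of its 20 largest rises 10 were sterol list genes, and 9 of those rose under 2-imidazolidinethione. Of the other 10, among them APOD, RAMP1, CPT1A and ALDH1L1, 0 were called under 2-imidazolidinethione, with differences between -0.13 and 0.13. Their SEs ran from 0.036 to 0.198, against 0.026 for DHCR7 and 0.041 for MVD of the sterol list. Rises of the size seen in the sterol genes could thus be missed in some of these 10. The comparisons share their controls, whether label numbers are plate positions is not stated, and the part of a neighbouring well was not tested.

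**Figure D4:**
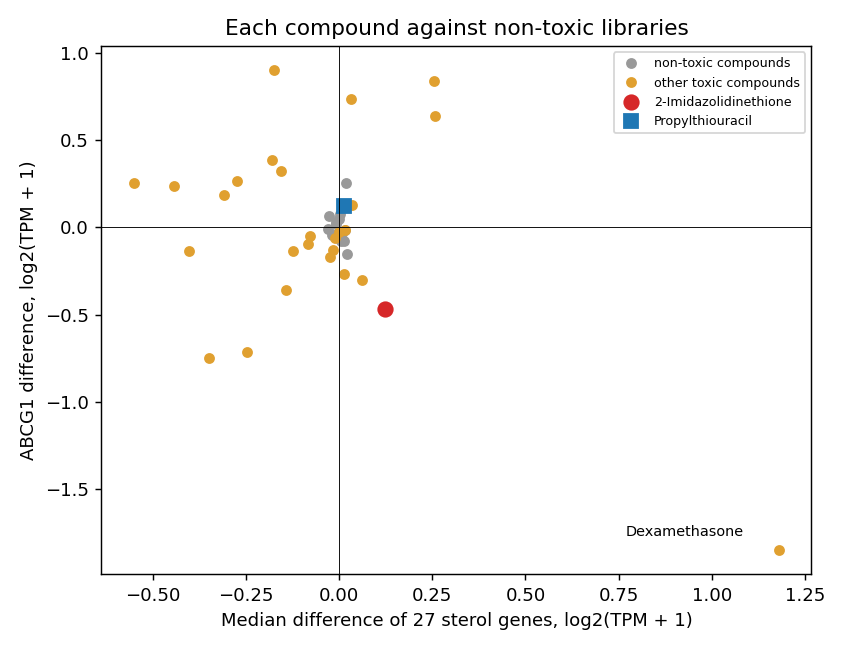
Each compound against the shared non-toxic libraries of its own days. The median difference of 27 sterol genes is on the horizontal axis and the ABCG1 difference on the vertical axis, both log2(TPM + 1). 2-Imidazolidinethione (circle) lies at 0.12 and -0.47, propylthiouracil (square) at 0.01 and 0.12, and dexamethasone at 1.18 and -1.85.

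The counts depend on the controls. With ibuprofen on day 8 kept, 71 genes and 8 sterol genes passed for 2-imidazolidinethione and 27 genes for propylthiouracil, while ABCG1 (-0.46, limma adjusted p 9.61e-05) and TMEM97 (0.30) kept their calls. Against DMSO alone, paired by day, limma called 0 genes for either compound, with 2438 and 1118 at an unadjusted p under 0.05 for 2-imidazolidinethione and propylthiouracil. There ABCG1 stood at -0.51 and TMEM97 at 0.28 under 2-imidazolidinethione, both at a limma adjusted p of 0.225, beside -0.47 and 0.29 in the main fit. DMSO had 11 libraries, against 147 non-toxic ones, so 0 calls there do not show that the differences vanish. Lower genes were long, with a median transcript of 5753 bases for 2-imidazolidinethione and 5961 for propylthiouracil against 3270 over all tested genes. The length trend, negative where long genes read lower, had a median of -0.012 in 2-imidazolidinethione libraries and -0.016 in propylthiouracil libraries. The median was -0.030 over 207 libraries of other toxic compounds and 4.0e-04 over the 147 non-toxic ones. Each of these groups held libraries of either sign. The lower values of long genes are thus not shown to belong to the thioureas, and their cause was not tested. With the length trend of each library as a covariate, 612 genes passed for 2-imidazolidinethione, 23.4% of them higher, with 17 sterol genes among them. For propylthiouracil 777 passed, 44.5% of them higher.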

How the data were processed

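RNA was taken up from cells lysed on the plate and made into TruSeq libraries, per the labels' protocols. CASAVA 1.8.2, Bowtie 0.12.8, RSEM 1.2.1 and hg19 are named in the submitters' processing notes. The authors deposited gene-level TPM, 1 column per library, whose sums lay between 999999.07 and 1000001.05. No read counts were used, so depth is unknown and no count model was fitted. Groups, days and doses came from the labels.

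Of 19084 genes, the 16318 that reached 1 TPM in 5 or more libraries of the series were tested. The model for log2(TPM + 1) was limma 3.58.1 (R 4.3.3) with an intensity trend, a factor for day and a random block for compound (correlation 0.0235 for propylthiouracil and 0.0240 for 2-imidazolidinethione). The fits of every compound used 0.0368. Named genes were up to 8 largest rises and falls among called genes that averaged 5 TPM or more over days in 1 of the groups and kept their sign on 80% of days or more, 5 each way for the change over time, with ABCG1, TMEM97 and members of 33 gene lists. The compounds, the lists and the tests were chosen with earlier results of these data known. On simulated data with 200 planted genes that averaged 5 TPM or more, differences of 0.2 were recovered in 74.6% for each compound alone and differences of 1 in 100%. The simulated noise was independent, with the spread of the controls, and held no compound effect and no shift of whole libraries. The recovery in the real libraries is thus not known. Alternatives varied the pseudocount, filter, scaling, controls, block, days and single libraries. Some genes are counted in their lists but not reported by name here. Molar doses used rdkit 2024.09.2. Lengths came from GENCODE 29, with 92.7% of tested genes matched by symbol.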

Additional observations from a re-analysis of the deposited data

Results flagged for a closer look

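Among 30 genes checked in the 10 libraries of 2-imidazolidinethione, 4 had a library whose gap to its nearest neighbour exceeded the 95% limit of a Dixon test, where chance flags about 1 in 20. The deviation from same-day controls was -1.45 for YJEFN3 on day 15, 0.25 for DNASE1L2 on day 6, and 0.58 for ACAT2 and 0.47 for FDFT1, both on day 39.

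The change of the difference between days 1 to 6 and days 8 to 39 (limma interaction) was also looked up for those 30 genes under 2-imidazolidinethione and for 17 genes named against the non-toxic libraries under propylthiouracil, and 3 passed, beside the genes the report names for that change. Under 2-imidazolidinethione TMEM97 changed by 0.31 and HSF4 by -0.88. HSF4 stood at 0.00 early and -0.87 late, and its control mean was 1.29 TPM early and 12.8 TPM late. Under propylthiouracil DLK1 changed by 0.50.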

How the results depend on the processing

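The pseudocounts, filters, centring and the removal of all ibuprofen libraries kept each count of calls against the non-toxic libraries within 1.5 times of the reported one. With the day 8 ibuprofen library kept, 224 genes passed for both thioureas, 27 for propylthiouracil and 71 for 2-imidazolidinethione, with 8 sterol genes. With DMSO alone, paired by day as a replicate block, 0 passed for each of the 3 and 0 sterol genes, with 2260 at an unadjusted p under 0.05 for both together. Without days 15 and 21, 1406 passed for both and 340 for propylthiouracil, and 302 for the change over time. On days 1 to 6, 1156, 353 and 913 passed, with 11 sterol genes for 2-imidazolidinethione. On days 8 to 39, 663 passed for 2-imidazolidinethione, with 12 sterol genes, and 1 sterol gene passed for propylthiouracil. Without the compound block 1128 passed for propylthiouracil. With the length covariate, chosen after the data were seen, 1225 passed for both and 612 for 2-imidazolidinethione. The fits with the shared correlation of 0.0368 called 435 genes for propylthiouracil and 1321 for 2-imidazolidinethione.

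Leaving out 1 library gave 1476 to 2744 calls for both, 395 to 1146 for propylthiouracil and 591 to 2218 for 2-imidazolidinethione, with 14 to 19 sterol genes. For 2-imidazolidinethione the count was 591 without day 10 and 819 without day 4, and for both together 1476 without 2-imidazolidinethione on day 10. For propylthiouracil it was 395 without day 21, 402 without day 39, 961 without day 2 and 1146 without day 6. Of the genes named from the rule and called, ABCG1 and TMEM97 included where called, 7 of 16 for 2-imidazolidinethione, 6 of 15 for propylthiouracil and 14 of 17 for both kept their call in every such removal. The calls of FXYD5 (limma adjusted p 0.0546 with a pseudocount of 0.1), RARRES3 (0.104 with 5) and CP (0.0537 with 5) were also lost. Signs reversed on days 1 to 6 for TMEM97 under propylthiouracil (-0.0077) and HSF4 under 2-imidazolidinethione (0.0044). The cause of these changes was not tested, and the shorter windows also held fewer libraries. Against the other toxic compounds the count stayed at 0 in the 4 alternatives run.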
